A study of Mus musculus with 2 samples.

Results

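The oligoadenylate synthetase (Oas) and Oas-like (Oasl) genes were followed in 2 sorted populations of mouse spleen dendritic cells (DCs), the antigen-presenting cells that start T cell responses. The members are the listed genes Oas1a, Oas1b, Oas1c, Oas1g, Oas2, Oas3, Oasl1 and Oasl2, taken wherever a probe set of the Affymetrix array was annotated to exactly 1 of them. Of the 8 genes, 7 had such a probe set, each with 1, among 18194 genes on the array. Oas1g had none and has no value here. The family was chosen by the difference between the same arrays, since earlier results had shown the gaps of Oasl2 and Oas1a, so the values that follow describe the arrays and support no test.

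The populations were CD8+ DCs and CD8- DCs from the spleens of C57BL/6 mice. The mice carried Flt3L-producing B16 melanoma, a mouse tumour line whose Flt3 ligand expands DCs, for 10 to 12 days, and both populations share this treatment. Cells were enriched magnetically and then sorted as CD3-, B220- and CD11c+ cells with or without CD8a. The labels call both unstimulated, and they do not say how many mice gave each RNA. Each population was measured on 1 array, so there is no replicate, no error and no test, and no difference can be told apart from variation between mice, sorts or hybridisations. Values are log2 signals. A signal of 3.85, the median of all values, served as the floor below which a value was treated as near background, and a gene with either value at or above it was called measured (11404 genes). The arrays also cannot tell fewer cells expressing a gene from less RNA per cell.

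The marker genes followed the sort labels. Of 8 measured CD8+ DC markers, 7 were at least 2-fold higher on the CD8+ array, with Cd8a at 11.29 against 5.15. Of 7 measured CD8- DC markers, 6 were at least 2-fold higher on the CD8- array, with Sirpa at 4.49 in CD8+ and 8.69 in CD8- DCs. T cell, NK cell, neutrophil and erythroid lists had 3 of 5, 5 of 6, 5 of 7 and 4 of 5 genes below the floor on both arrays, and no gene of these lists reached 2-fold.

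Oas proteins sense double-stranded RNA, as made by many viruses, and join ATP into short chains of adenosines linked in an unusual way. These chains are a second messenger of the antiviral response, through which RNA is cut and viral growth limited. Type I interferon switches the genes on, through a complex that includes STAT2 and IRF9 and binds the interferon-stimulated response element (ISRE) of their promoters, and DCs keep a low level of such genes without infection. The mouse family is larger than the human one, with many copies of Oas1 beside single Oas2 and Oas3 genes. The Oasl proteins carry ubiquitin-like repeats after the synthetase domain.

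Promoter sequences are shown first, because the ISRE is the element through which the family is known to respond to interferon. RefSeq windows of the GRCm38.p6 build were in the table used for 6 of the 8 members, Oas1a, Oas1c, Oas1g, Oas3, Oasl1 and Oasl2. The 250 bases before each listed start were searched on both strands for an ISRE core, written GAAANNGAAA, for the composite element of ETS factors and IRF proteins (EICE), written GGAANNGAAA, and for the interferon-gamma activated site (GAS), written TTCNNNGAA. A match describes letters and does not show binding, and no match says only that the letters are not in the window. The 4 members with an ISRE match are shown by 60 bases each, on the strand of the gene (the minus strand for all 4), with the matched bases in capitals.
Oas1a, chr5:120907526-120907585: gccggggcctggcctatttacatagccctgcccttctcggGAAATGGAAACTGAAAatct
Oas1g, chr5:120887614-120887673: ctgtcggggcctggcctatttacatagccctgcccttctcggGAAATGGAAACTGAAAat
Oas1c, chr5:120812595-120812654: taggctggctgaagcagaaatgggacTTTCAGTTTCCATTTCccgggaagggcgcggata
Oas3, chr5:120777700-120777759: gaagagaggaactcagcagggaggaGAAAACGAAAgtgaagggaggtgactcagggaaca

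In Oas1a, Oas1g and Oas1c the capitals hold 2 overlapping ISRE matches, which together span a run of 16 bases. Read along the strand of the match, the run was the same in all 3 genes, GAAATGGAAACTGAAA. In Oas1a and Oas1g it lay on the strand of the gene, starting 20 and 18 bases before the listed start. In Oas1c it lay on the opposite strand, between 114 and 99 bases before the start. This run occurred in 7 of the 32851 windows of all genes, which belonged to 5 genes, the other two being Apol9a and Apol9b. Oas3 had a single match with other bases at the free positions, 75 to 66 bases before its start. Over their 250 bases, Oas1a and Oas1g were identical at 82.8% of 256 aligned positions, against 46.0% for Oas1a and Oas1c.

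The upstream windows of Oasl2 and Oasl1, 250 bases each on the plus strand, are shown for contrast, since Oasl2 had the largest difference of the family and neither window held a match to any of the 3 motifs.
Oasl2, chr5:114896684-114896933: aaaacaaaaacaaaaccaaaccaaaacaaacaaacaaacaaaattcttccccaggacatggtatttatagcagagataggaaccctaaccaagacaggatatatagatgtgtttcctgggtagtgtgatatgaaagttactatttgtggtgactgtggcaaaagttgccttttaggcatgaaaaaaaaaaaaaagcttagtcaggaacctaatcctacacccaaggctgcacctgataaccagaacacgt
Oasl1, chr5:114922990-114923239: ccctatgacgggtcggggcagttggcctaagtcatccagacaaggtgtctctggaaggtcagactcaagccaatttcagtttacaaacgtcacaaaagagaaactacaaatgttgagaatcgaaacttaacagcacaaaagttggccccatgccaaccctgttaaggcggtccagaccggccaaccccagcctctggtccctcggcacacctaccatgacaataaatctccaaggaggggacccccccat

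Of all windows, 2.98% held the ISRE letters, 2.30% the EICE letters and 7.02% the GAS letters. Counted by gene, with a match in any window of the gene, the shares were 3.46%, 2.68% and 8.13%. The list counts below are by gene. None of the 6 member windows held an EICE match, and 1, that of Oas1a, held a GAS match, 98 to 90 bases before the start. Of the other interferon-stimulated genes listed below, 11 of the 27 with a window held an ISRE match. Of these, Ifit1, Ifit3, Rsad2, Ddx60, Gbp2 and Gbp3 were past 2-fold toward CD8- DCs. Bst2 (-0.43), Igtp (-0.64), Irgm1 (-0.87) and Trim30a (0.78) were not, and Isg15 had no single-gene probe set. The whole list had 12 of 33 measured genes past 2-fold toward CD8- DCs, beside 5.97% of all measured genes. The others of the 12, Rtp4, Ifitm3, Ifi27l2a, Ifi27, Xaf1 and Isg20, held no match or had no window. Whether the match goes with the difference was not tested. None of the 11 RNA sensor genes with a window held an ISRE match. The windows of the paralogues Oas1f and Oas1h, which are outside the member list, held no match to any of the 3.

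**Figure D1:**
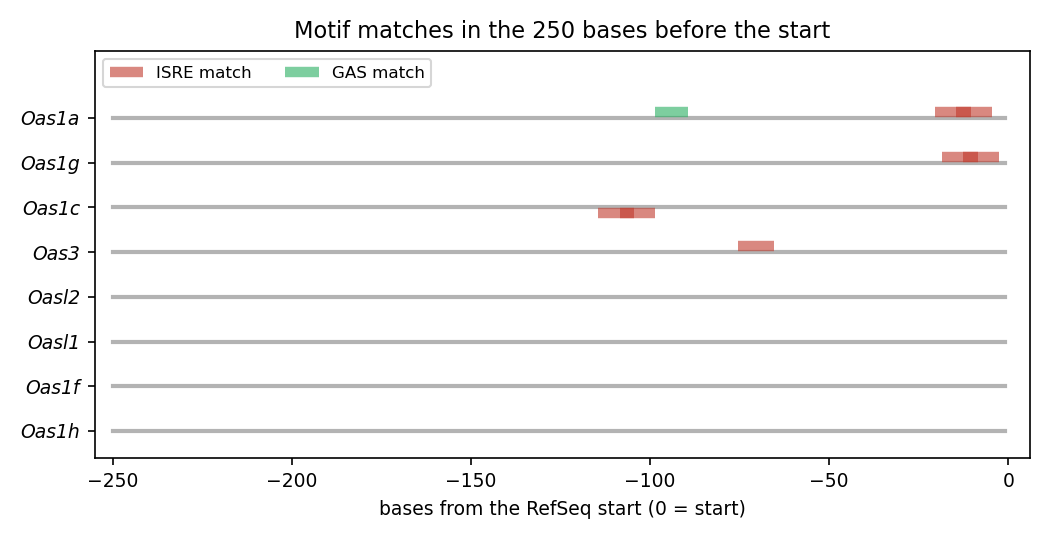
Motif matches in the 250 bases before the listed start of 6 members and of the paralogues Oas1f and Oas1h, with the distance from the start in bases on the horizontal axis; bars above a line are on the strand of the gene and bars below it on the other strand. ISRE matches lie next to the start in Oas1a and Oas1g, farther upstream in Oas3 and, on the other strand, in Oas1c, and the lines of Oasl2, Oasl1, Oas1f and Oas1h are empty.

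The family was uneven between the populations, and where it differed it was higher in CD8- DCs. Oasl2, Oas1a, Oas2 and Oas1c were past 2-fold in that direction, Oas3 and Oas1b were lower in CD8+ DCs by less than that, and Oasl1 was level. Past 2-fold toward CD8- DCs were thus 4 of the 7 members, beside 5.97% of all measured genes. No member was past 2-fold toward CD8+ DCs, beside 3.55% of all measured genes. The rule of choice rests on this same contrast, so the count is a description only. Once values below the floor were raised to it, 3 members remained past 2-fold in CD8- DCs (background 5.55%), without Oas1c, and none was past it in CD8+ DCs (background 3.25%). The median log2 difference of the 7, CD8+ minus CD8-, was -1.40 as measured and -0.46 with the floor, beside 0.03 over all measured genes in both cases.

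**Figure D2:**
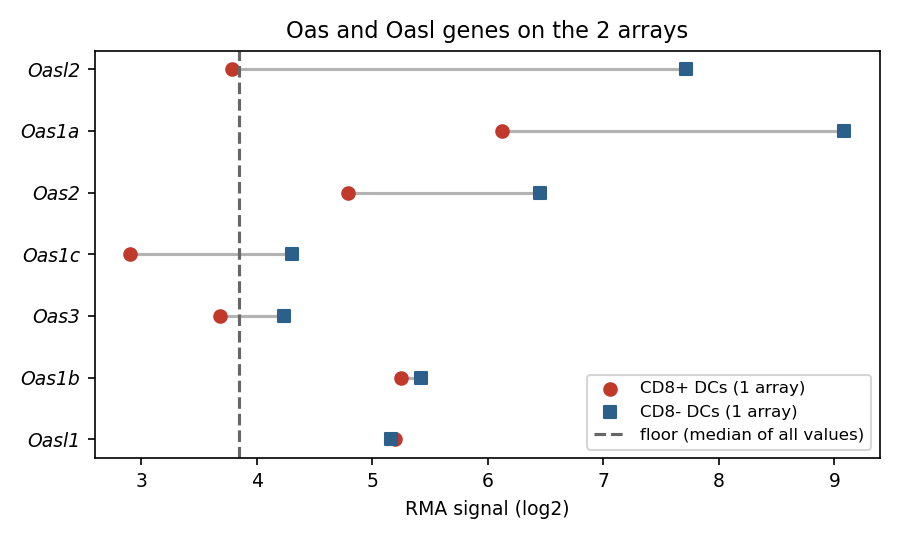
Log2 RMA signal (horizontal axis) of the 7 members on the CD8+ array (circles) and the CD8- array (squares), 1 array each, with the floor as a dashed line. Oasl2 and Oas1a have the longest gaps, Oasl2, Oas1c and Oas3 lie left of the floor on the CD8+ array, and the symbols of Oasl1 almost coincide.

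Oasl2 encodes the Oas-like protein that is known to have kept synthetase activity in the mouse. Its signal was 3.78 in CD8+ DCs, just under the floor, and 7.72 in CD8- DCs. It was therefore well above the floor on the CD8- array and near background on the other. The fold was at least 14.6 toward CD8- DCs when the floor stood for the CD8+ value, and 15.3 as measured. Its log2 difference of -3.93 was the 63rd lowest of the 11404 measured genes. With values below the floor raised to it in all genes, the difference was -3.87, the 51st lowest. The exact difference rests on a near-background value. By likeness of the difference, over 2 arrays only, the nearest measured genes outside the family were Fgr, a Src family kinase gene (-3.92), Sucnr1, the succinate receptor gene (-3.92), and Ms4a4b (-3.95). Sucnr1 and Ms4a4b were also below the floor on the CD8+ array, so this likeness is in part between near-background values.

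Oasl1 lies beside Oasl2 in the genome and encodes a protein without synthetase activity, known for holding back translation of the Irf7 message. Its signal was 5.20 in CD8+ DCs and 5.16 in CD8- DCs. Both values were above the floor and the log2 difference was 0.04, which became -0.02 once the trend of the difference with signal was subtracted. The neighbours Oasl1 and Oasl2 thus stood at opposite ends of the range of the family.

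Oas1a is one of the Oas1 copies known to encode an active synthetase. Its signal was 6.12 in CD8+ DCs and 9.08 in CD8- DCs. Both values were well above the floor, so the 7.78-fold difference in favour of CD8- DCs does not rest on a background value, unlike that of Oasl2. The CD8+ signal was 12.9% of the CD8- signal, and the log2 difference of -2.96 was the 116th lowest of the measured genes. The measured genes outside the family with the nearest difference were Cyp4f16 (-2.95), the RNA sensor gene Tlr7 (-2.94) and Bend4 (-2.94), of which Tlr7 and Bend4 were below the floor in CD8+ DCs. Oas1g, another active copy, has a closely similar upstream window, as shown by its sequence. Whether its RNA adds to the Oas1a probe set was not tested, since no probe sequences were used here.

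Oas2 encodes a larger synthetase with 2 joined synthetase units. Its signal was 4.79 in CD8+ DCs and 6.45 in CD8- DCs. It was above the floor on both arrays and 3.16-fold higher in CD8- DCs, a log2 difference of -1.66. Oas3 encodes the largest synthetase, a known sensor of long double-stranded RNA. Its signal was 3.69 in CD8+ DCs and 4.23 in CD8- DCs. It was under the floor on the CD8+ array and little above it on the other, so only a fold of at least 1.31 can be given.

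Among the remaining Oas1 copies, Oas1c showed the largest gap but the dimmest signal. Oas1c encodes a form that is known as a poor synthetase. Its signal was 2.91 in CD8+ DCs and 4.30 in CD8- DCs. The log2 difference was -1.40, but the CD8+ value was under the floor, and the fold was at least 1.37. Oas1b is the gene whose full-length form protects mice from flaviviruses such as West Nile virus. Laboratory strains including C57BL/6 carry a premature stop in it, and RefSeq lists it as a transcribed pseudogene in this build. Its signal was 5.25 in CD8+ DCs and 5.42 in CD8- DCs, both above the floor, a log2 difference of -0.17. The transcript thus had about the same signal in both populations.

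**Figure D3:**
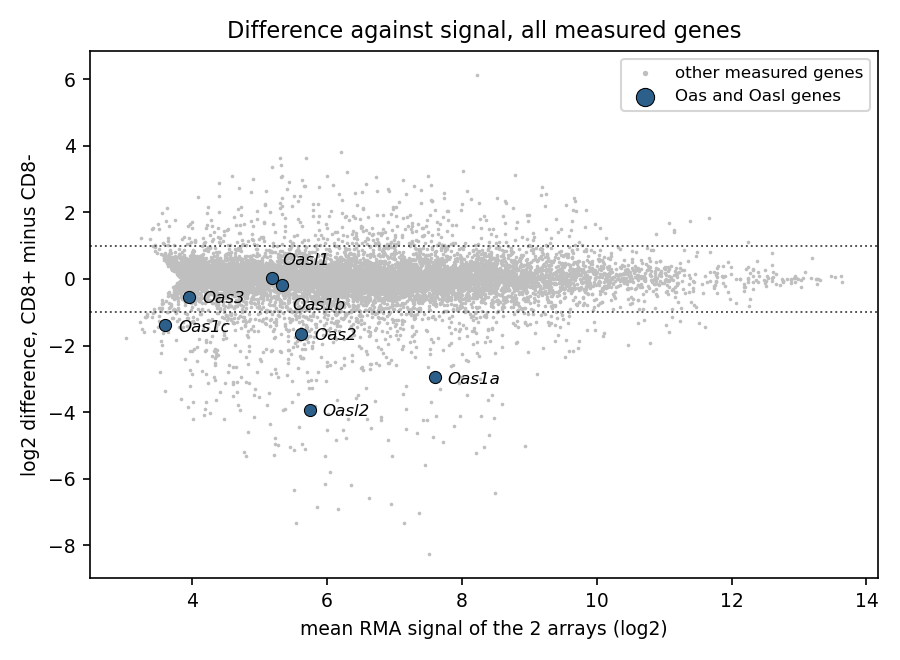
Log2 difference, CD8+ minus CD8- (vertical axis), against the mean log2 signal of the 2 arrays (horizontal axis) for 11404 measured genes (grey points) and the 7 members (labelled points); dotted lines mark 2-fold. Oasl2, Oas1a, Oas2 and Oas1c lie below the lower line, and Oas1b and Oasl1 lie in the dense band around 0.

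Of the paralogues of Oas1 outside the member list, only Oas1e was measured, and it was near level, like the members Oas1b and Oasl1. Oas1e had signals of 5.48 (CD8+) and 5.23 (CD8-), a log2 difference of 0.26. Oas1f (3.53 and 3.18) and Oas1h (3.32 and 2.86) were below the floor on both arrays. Oas1d had no probe set of its own, and a probe set annotated to both Oas1e and Oas1d was at 2.09 and 1.81. Of the 3 paralogues with a value, none reached 2-fold.

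The difference also varied from gene to gene along the chromosome. In RefSeq order, the first locus runs Oas2, Oas3, Oas1e, Oas1c, Oas1b, Oas1f, Oas1h, Oas1g, Oas1a and Oas1d. Oas2 and Oas1a, the members past 2-fold with both values above the floor, lie far apart within it, with Oas3, Oas1e and Oas1b between them under 2-fold and Oas1c, also between them, past 2-fold only as measured. Of the 3 nearest genes with a probe set on either side, Dtx1, a ubiquitin ligase gene of the Notch pathway next to Oas2, was at 3.64 in CD8+ and 7.33 in CD8- DCs. The fold toward CD8- DCs was at least 11.2, and the gene was also listed here as a CD8- DC marker. The other neighbours, Ddx54, Rasal1, Rph3a, Ptpn11 and Rpl6, differed by -0.12 to 0.25. Around Oasl2 and Oasl1, none of the 6 neighbours reached 2-fold. The nearest genes after Oasl1 were 2210016L21Rik (-0.23), Sppl3 (0.00) and Acads (0.35).

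**Figure D4:**
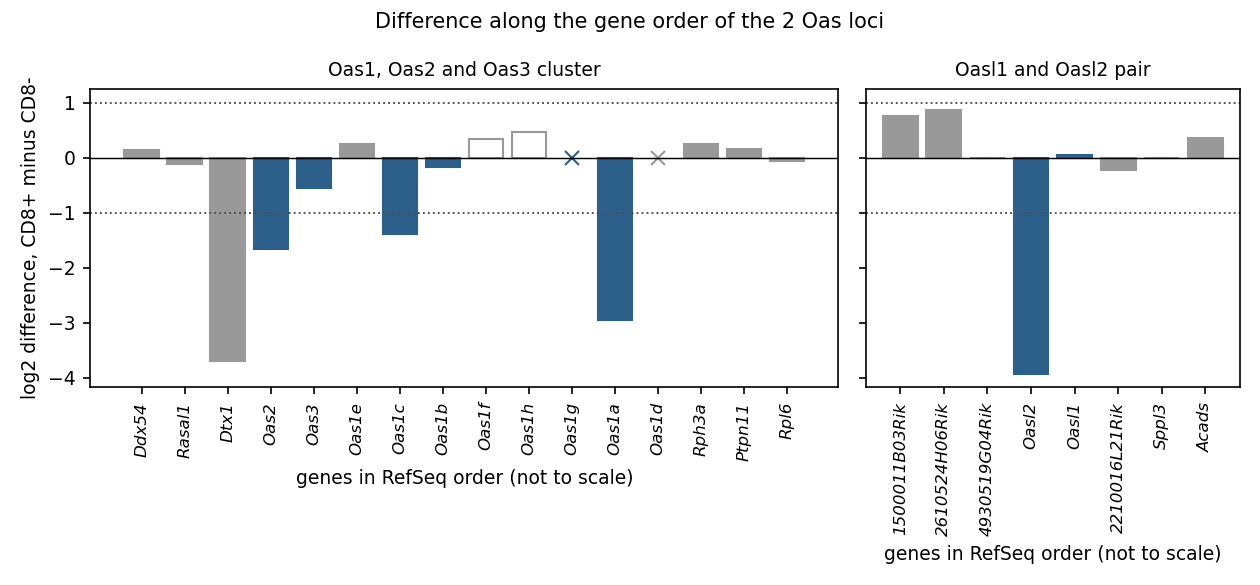
Log2 difference, CD8+ minus CD8- (vertical axis), of the genes of the Oas1, Oas2 and Oas3 cluster and of the Oasl1 and Oasl2 pair with their 3 nearest neighbours on each side, in RefSeq order and not to scale. Members are blue and other genes grey, open bars are genes below the floor on both arrays, crosses are genes without a single-gene probe set, and dotted lines mark 2-fold; Oasl2 stands between short bars, Oas2 stands between the taller bar of Dtx1 and the short one of Oas3, and the genes on either side of Oas1a have no value.

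The measured partner genes of the synthetases were nearly level. Abce1, which encodes a protein that recycles ribosomes and is known to hold back this pathway, was at 7.86 in CD8+ and 7.87 in CD8- DCs. Pde12, which encodes an enzyme that breaks down the adenosine chains, was at 6.93 and 6.73. The differences of its 2 measured probe sets were -0.26 and 0.20. Akap7, whose protein can also cleave these chains, was at 4.99 and 4.70. None of these 3 reached 2-fold.

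Other listed RNA sensors and partners went both ways past 2-fold, though most had the lower value in CD8+ DCs. Of 13 measured, 10 had the lower value in CD8+ DCs and 3 the higher, and 2 were past 2-fold toward each population. The RNA sensor gene Tlr7, named above, was not in this list. Of all measured genes, 5.97% were so toward CD8- DCs and 3.55% toward CD8+ DCs. The median log2 difference of the list was -0.13. Ddx58, which encodes the cytosolic RNA sensor RIG-I, had signals of 4.25 (CD8+) and 7.28 (CD8-), an 8.15-fold difference. The differences of its 2 measured probe sets were -3.03 and -1.99. Ifih1, which encodes the long-RNA sensor MDA5, was at 7.33 and 8.79. Dhx9 (-0.52) and Zbp1 (-0.42) followed under 2-fold, by the probe sets that represent them. Zc3hav1 came next at -0.30, but its 3 measured probe sets ran from -1.90 to -0.30. In the other direction, the endosomal double-stranded RNA receptor gene Tlr3 was at 10.69 in CD8+ and 8.61 in CD8- DCs. Prkra, which encodes an activator of the RNA-dependent kinase PKR, was at 8.22 and 7.19, only 2.04-fold. Adar, the RNA editing enzyme gene, differed by 0.16. The 3 measured probe sets of Adar ran from -0.28 to 0.16. The gene of PKR, Eif2ak2, which also binds double-stranded RNA, was at 6.39 and 6.43.

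Of the interferon pathway itself, no listed ligand was above the floor. Ifnb1, Ifna2, Ifna4 and Ifng were below it on both arrays, with signals between 2.33 and 2.82. The receptor gene Ifnar1 was at 7.96 in CD8+ and 7.84 in CD8- DCs, and Ifnar2 at 8.13 and 8.75. Stat2 (6.39 and 6.69) and Irf9 (8.37 and 8.51), partners in the complex that binds the ISRE, were each under 2-fold. Of the 10 measured genes of this list, 1 was past 2-fold, beside 5.97% of all measured genes toward CD8- DCs. It was Socs3, a cytokine signalling inhibitor gene (5.17 in CD8+ and 7.90 in CD8- DCs). The differences of its 3 measured probe sets ran from -2.72 to -0.995. Usp18, which encodes a protease that dampens the interferon receptor, differed by -0.88, and Tyk2, the kinase bound to Ifnar1, by 0.85. The 2 measured probe sets of Tyk2 differed by 0.18 and 0.85. Socs1, another signalling inhibitor gene, was close to the floor (4.08 and 3.67). The list median was -0.28.

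Among 7 measured interferon regulatory factors, 1 was at least 2-fold higher in each population. The share of all measured genes was 5.97% in CD8- DCs and 3.55% in CD8+ DCs. Irf4, a factor of CD8- DC development, was at 3.44 in CD8+ and 7.33 in CD8- DCs, at least 11.2-fold, and Irf8, a factor of CD8+ DC development, was at 11.91 and 10.23. Irf7, which amplifies interferon production and is itself interferon-inducible, was at 8.24 and 8.17. Irf1, Irf2 and Irf3 differed by -0.37 to -0.24 and Irf5 by 0.61.

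The other interferon-stimulated genes leaned the way of the family. Of 33 measured, 25 had the lower value in CD8+ DCs and 7 the higher. Past 2-fold were 12 of them (36.4%), each toward CD8- DCs, beside 5.97% of all measured genes. None was past it toward CD8+ DCs, beside 3.55% of all measured genes. The list median was -0.64, as measured and with the floor, where that of the family was -0.46. The list includes genes already known from these arrays to lean this way and is no independent evidence. The largest differences were those of Rtp4, a chaperone gene (at least 36.8-fold, 2.90 and 9.05), and Ifit3, of the RNA-binding IFIT family (12.5-fold, 4.33 and 7.98). Ddx60 (1.91 and 5.29) and Ifit1 (3.27 and 5.93) lay below the floor on the CD8+ array, and the bounds on their folds were at least 2.72 and 4.24. The genes leaning most toward CD8+ DCs were the dynamin-like GTPase gene Mx1 (7.88 and 6.96), the immunoproteasome gene Psmb9 (11.27 and 10.39), Trim30a (10.60 and 9.82) and Tor3a (7.50 and 6.96), all under 2-fold. Mx2, a further dynamin-like GTPase gene, was at 5.33 on both arrays. As in the Oas family, the genes of this list ranged from level to many-fold apart.

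**Figure D5:**
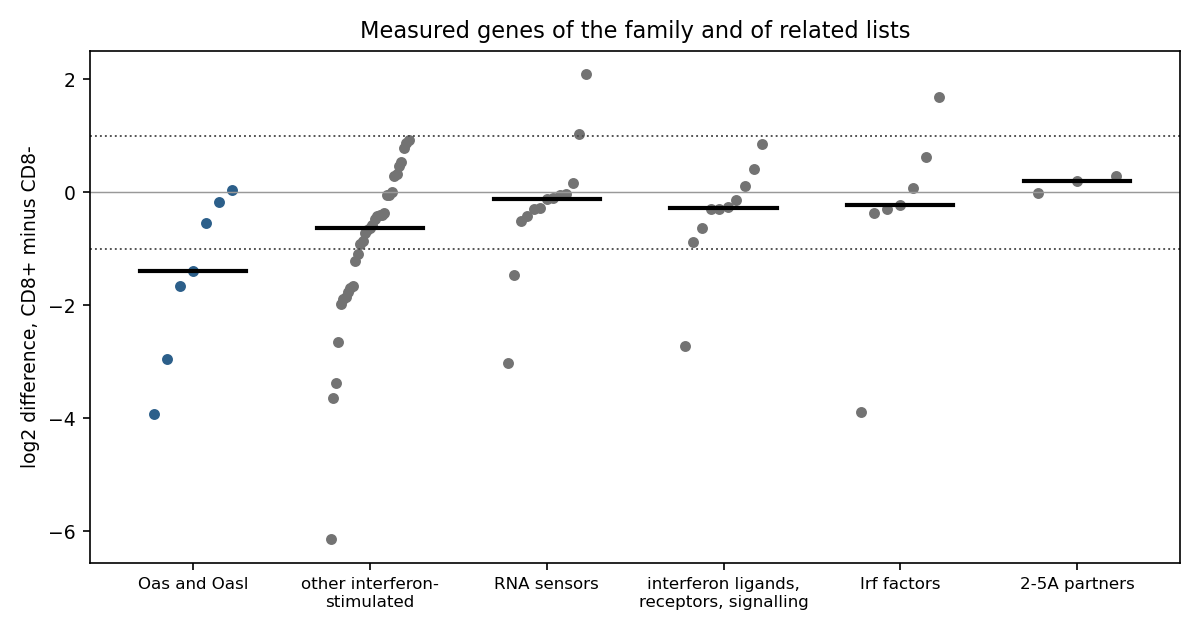
Log2 difference, CD8+ minus CD8- (vertical axis), of each measured gene of the family (blue) and of 5 related gene lists (grey); black bars are medians and dotted lines mark 2-fold. The medians lie at -1.40 for the family, -0.64 for the other interferon-stimulated genes, and between -0.28 and 0.20 for the rest; once values below the floor are raised to it, the family median is -0.46 and that of the other interferon-stimulated genes stays at -0.64, so their order turns.

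Markers of other cells were read beside these values. Of 7 measured plasmacytoid DC markers, Tcf4 was past 2-fold toward CD8- DCs (5.47 and 7.55) and Ccr9 toward CD8+ DCs (8.03 and 5.94). Pacsin1 was under 2-fold by the probe set used, but its 2 measured probe sets differed by 0.82 and 1.46. Siglech, which defines these cells, was near the floor (3.71 and 4.04), and the summed signal of the list was 8.78 in CD8+ and 8.55 in CD8- DCs on the log2 scale. Of 6 measured monocyte and macrophage markers, Csf1r (6.40 and 10.56) and Adgre1 (4.63 and 8.22) were past 2-fold toward CD8- DCs, and Cd14 (7.50 and 6.10) was so toward CD8+ DCs. For Vcam1 and Fcgr1 the call depended on the probe set. The differences of their measured probe sets ran from 0.42 to 2.49 and from -1.65 to 0.10. The summed signal of that list was 10.39 and 11.74, while Mertk, Cd5l and Spic were below the floor on both arrays. Of 3 measured B cell markers, Cd79b was past 2-fold toward CD8- DCs (3.28 and 6.59), while Ms4a1 (5.74 and 4.99) and Blk (4.30 and 4.60) were under 2-fold, with Cd79a and Pax5 below the floor on both arrays, and the summed signal was 6.85 and 7.56. Of 3 measured melanoma markers, none reached 2-fold, and Tyr, Tyrp1, Dct and Mlana were below the floor on both arrays. The part of such cells in the Oas and Oasl differences was not tested.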

How the data were processed

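The deposited table holds log2 signals of 45101 probe sets on 2 arrays, made by the authors with RMA, per the submitters' processing notes. RMA subtracts background, gives arrays the same distribution and summarises the probes of a probe set, so a shift common to most genes would be hidden. Its version is not given in the sources used here. Probe sets were named by the platform annotation, and 34754 of 34958 single-gene probe sets matched the RefSeq table of GRCm38.p6 by gene identifier. The 932 probe sets with several genes and the 9211 not listed stayed out.

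Each gene was represented by its probe set with the highest mean, and the threshold was 2-fold. Named genes were all members, the partner and paralogue lists, the 4 largest differences per direction among measured genes of each other list, textbook upstream genes, nearest differences and chromosomal neighbours. Mx2, Bst2, Rsad2, Gbp2, Gbp3, Igtp, Irgm1, Zc3hav1, Eif2ak2 and the marker genes printed were named after their values were seen. So were Ifitm3, Ifi27l2a, Ifi27, Xaf1 and Isg20. The members and lists were chosen with earlier results of these data known. Calculations used Python 3.11.15, numpy 2.4.6, pandas 2.3.3 and statsmodels 0.14.6. The code was also run on simulated data with large differences planted in brighter genes, which checks the code and not the values reported here. Precision is limited by there being 1 array per population. Some listed genes are not reported here.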

Additional observations from a re-analysis of the deposited data

How the results depend on the processing

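Of the alternatives, the fold threshold moved the counts most. At 1.5-fold, 1314 measured genes were past the threshold toward CD8- DCs and 968 toward CD8+ DCs, and at 4-fold 239 and 98. At 4-fold, 2 members, Oasl2 and Oas1a, stayed past the threshold in CD8- DCs, beside 239 of 11404 measured genes. The member count in CD8- DCs was 4 when arrays were centred or a lowess trend was subtracted. Beside it, 716 of 11398 genes were past 2-fold with arrays centred and 711 of 11404 with the trend subtracted. The member count was also 4 when no filter was used, probe sets were averaged or those ending in _x_at or _s_at were left out. The counts over all genes were then 692 of 18194, 558 of 10394 and 663 of 11058. These last settings could not change a member value, so they say nothing about stability. All 7 members with a probe set were measured, each has 1 probe set, and none ends in _x_at or _s_at. A filter at the 75th percentile kept Oas1a, Oas2 and Oasl2 alone, beside 505 of 6854 genes past 2-fold in CD8- DCs. Oas2 and Oasl2 passed it only through the CD8- array where they are high, so the 3 calls say nothing about stability. Setting values below the floor to it, added after the data were seen, took the log2 difference of Oas1c from -1.40 to -0.46; the other member differences moved by less than 0.30, the pooled SD between probe sets of a gene. Without probe sets ending in _x_at or _s_at, Socs3 was under 2-fold and no gene of its list was past it in CD8- DCs. With arrays centred or probe sets averaged, 1 RNA sensor in place of 2 was past 2-fold in CD8+ DCs. No paired analysis was possible because each population has 1 array. Signal over background limits Oasl2, Oas1c and Oas3, whose CD8+ values are near background.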
